A study of Homo sapiens with 6 samples.

Results

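Methionine salvage, S-adenosylmethionine synthesis and polyamine synthesis form a linked set of reactions, and transcripts of 10 of their enzymes (ADI1, MTAP, APIP, ENOPH1, MRI1, MAT2A, MAT2B, AMD1, SRM and ODC1) were examined among 58735 genes counted in Meg-01 cells. The set was chosen by the lower level of ADI1 after propionate, so its values are a description, counts of members at a gate are printed beside the share over all tested genes and support nothing, and the other 9 members were added as enzymes of the same pathway. All 10 had at least 10 counts in at least 3 libraries, as did 15078 genes of the whole table. Meg-01 is an established human megakaryoblast cell line, a model of the precursors of platelet-forming megakaryocytes. Untreated Meg-01 cells (control, 3 libraries) were compared with Meg-01 cells given 500 µM sodium propionate (C3) for 48 h (3 libraries). The study's figure legend calls the libraries technical replicates of this single line, so the spread between them and every p-value below describe these libraries and may be technical. Library totals were 19318595, 18050689 and 16159449 counts in control replicates 1 to 3 and 16513025, 18652292 and 22821722 counts in C3 replicates 1 to 3.

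Polyamines are small, positively charged molecules that growing cells make in quantity and that bind nucleic acids. S-adenosylmethionine is the methyl donor of the cell, and after decarboxylation it gives the aminopropyl groups of spermidine and spermine, which leaves methylthioadenosine as a by-product. The salvage enzymes turn methylthioadenosine back into methionine, so that polyamine synthesis does not drain the methionine pool.

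Libraries differed along more than the treatment. In a principal component analysis of log2 levels of all tested genes, component 1 (51.9% of variance) separated control from C3, and component 2 held 17.2%. On component 2, C3 replicate 1 stood at 13.7, control replicate 1 at 6.15 and control replicate 2 at 4.71, whereas C3 replicate 3 stood at -4.13, C3 replicate 2 at -9.30 and control replicate 3 at -11.1. C3 replicate 1 and control replicate 3 thus lay at opposite ends of component 2, on which the groups overlapped. Values without C3 replicate 1 are given below for ADI1, MTAP, SRM, ODC1, AMD1, SMOX, DOHH, EIF5A, AHCY, MTHFD1L, GOT1 and NFE2.

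ADI1 encodes acireductone dioxygenase, which makes the oxo acid that is finally transaminated to methionine. Its gene (ENSG00000182551) lies on chromosome 2 of GRCh38 at 3497366 to 3519531 on the minus strand. Normalized counts, which are counts scaled by library size and TMM factor to the mean library, were 990.4, 1012 and 1050 in the control replicates and 610.1, 527.3 and 524.6 in the C3 replicates. All 3 C3 libraries lay below all 3 control libraries, and C3 replicate 1 was the C3 library closest to the controls. The mean was 1017 ± 30.0 (SD, n = 3) in control and 554.0 ± 48.6 (SD, n = 3) after C3, or 54.5% of the control mean. The log2 fold change was -0.88 with a standard error of 0.076 and a 95% interval from -1.04 to -0.73. Without C3 replicate 1 the log2 fold change was -0.95. In bulk RNA, less transcript per cell cannot be told apart from a smaller share of cells that carry it.

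Of the 10 members, 1 (ADI1) was lower by both gates of the study, an adjusted p below 0.01 and a fold change above 1.3, and 0 were higher. Over all 15078 tested genes the same gates called 1.47% lower and 5.05% higher. At an adjusted p below 0.05 and any fold change, 3 members (ADI1, SRM and ODC1) were lower and 0 higher, where 8.77% of tested genes were lower and 11% higher. The C3 libraries lay entirely below the control libraries for the same 3 members and entirely above them for 0, against 16.9% and 17.5% of tested genes. Because this contrast chose ADI1, these shares are printed for comparison and nothing is read from them. The median log2 fold change was -0.06 over the members and 0.0021 over all tested genes. ADI1 had the 81st lowest log2 fold change of all tested genes.

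For the other 4 salvage enzymes, the control and C3 libraries overlapped. MTAP, which cleaves methylthioadenosine and opens the salvage route, had normalized counts of 1264, 1309 and 1327 in control and 1216, 1508 and 1492 after C3. Its groups overlapped, because C3 replicate 1 was the lowest library and C3 replicates 2 and 3 were the highest. Its log2 fold change was 0.12 with a standard error of 0.074, and it was 0.21 without C3 replicate 1, 0.07 without C3 replicate 2 or without C3 replicate 3, and 0.19 with library size alone. MRI1, the isomerase that acts next, had 421.2, 468.7 and 340.3 normalized counts in control and 442.7, 431.6 and 446.2 after C3. All C3 values fell inside the control range, and the control spread (15.8% of the mean) was wider than the 5.09% that counting alone gives.

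APIP, the dehydratase of the route, had 326.2, 354.2 and 415.5 normalized counts in control and 349.4, 355.1 and 367.0 after C3. Here the 3 C3 libraries fell inside the control range. ENOPH1, the enolase-phosphatase just before ADI1, had 1257, 1240 and 1347 in control and 1337, 1205 and 1312 after C3. For ENOPH1 the lowest library was C3 replicate 2 and the highest control replicate 3. The log2 fold change was -0.03 for APIP (95% interval -0.23 to 0.17, and 0.05 with library size alone as scaling), 0.0045 for ENOPH1 (95% interval -0.13 to 0.14) and 0.10 for MRI1 (95% interval -0.10 to 0.30). The sign of these small values depended on single libraries. Without control replicate 3 the log2 fold change of MRI1 was -0.014 and that of APIP 0.07, and without control replicate 2 that of MRI1 was 0.20. Over the 6 fits that each left out a library, ENOPH1 ran from -0.020 to 0.05, and with library size alone it was 0.08.

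Ratios of counts within a library do not depend on how libraries are scaled. Because this contrast chose ADI1, the ratios below describe the same lower level again and are no separate support for it. The log2 ratio of ADI1 to ENOPH1 was -0.34, -0.29 and -0.36 in control and -1.13, -1.19 and -1.32 after C3. The log2 ratio of ADI1 to MTAP was -0.35, -0.37 and -0.34 in control and -0.99, -1.52 and -1.51 after C3. The ratios of ADI1 to MRI1 and to APIP were also lower in each C3 library than in any control library, with mean log2 differences of -0.99 and -0.85.

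MAT2A and MAT2B encode the catalytic and the regulatory subunit of the methionine adenosyltransferase found outside the liver. MAT2A had 4028, 3764 and 4005 normalized counts in control and 3792, 3598 and 3638 after C3, with a log2 fold change of -0.10 and a standard error of 0.061. MAT2B had 1646, 1735 and 1706 in control and 1508, 1665 and 1561 after C3, with a log2 fold change of -0.10 and a standard error of 0.064. Both overlapped between the groups, and with library size alone as scaling the log2 fold changes were -0.024 for MAT2A and -0.028 for MAT2B. When a library was left out they ran from -0.13 to -0.07 and from -0.14 to -0.07. The log2 ratio of MAT2A to MAT2B was 1.21 ± 0.088 (SD, n = 3) in control and 1.22 ± 0.11 (SD, n = 3) after C3, a mean difference of 0.0076.

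Of the 3 enzymes of polyamine synthesis, ODC1 and SRM were lower after C3 and AMD1 was not. ODC1 encodes ornithine decarboxylase, which makes putrescine, and had 10915, 10878 and 10724 normalized counts in control and 9487, 8501 and 8607 after C3. SRM encodes spermidine synthase and had 9841, 9857 and 9429 in control and 8825, 7330 and 7061 after C3. For both genes every C3 library was below every control library, and C3 replicate 1 was again the C3 library closest to the controls. The log2 fold change was -0.29 with a standard error of 0.063 for ODC1 and -0.33 with a standard error of 0.072 for SRM, short of the 1.3-fold gate. Without C3 replicate 1 these values were -0.34 and -0.43, and SRM then met both gates. Without C3 replicate 2 they were -0.26 and -0.29, and without C3 replicate 3 they were -0.27 and -0.26. With library size alone they were -0.22 and -0.26.

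AMD1 encodes S-adenosylmethionine decarboxylase, the source of aminopropyl groups. Its normalized counts were 3057, 3283 and 3679 in control and 3073, 3765 and 3465 after C3, and the groups overlapped. Its log2 fold change was 0.04, and 0.12 without C3 replicate 1, 0.12 without control replicate 3 and -0.026 without C3 replicate 2. The control and C3 spreads were 9.42% and 10.1% of the mean, both wider than counting alone gives (1.65% after C3). Summed over the 10 members, CPM (normalized counts relative to library size) were 1813, 1821 and 1827 in control and 1646, 1552 and 1529 after C3, a sum in which the abundant SRM and ODC1 weigh most.

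**Figure D1:**
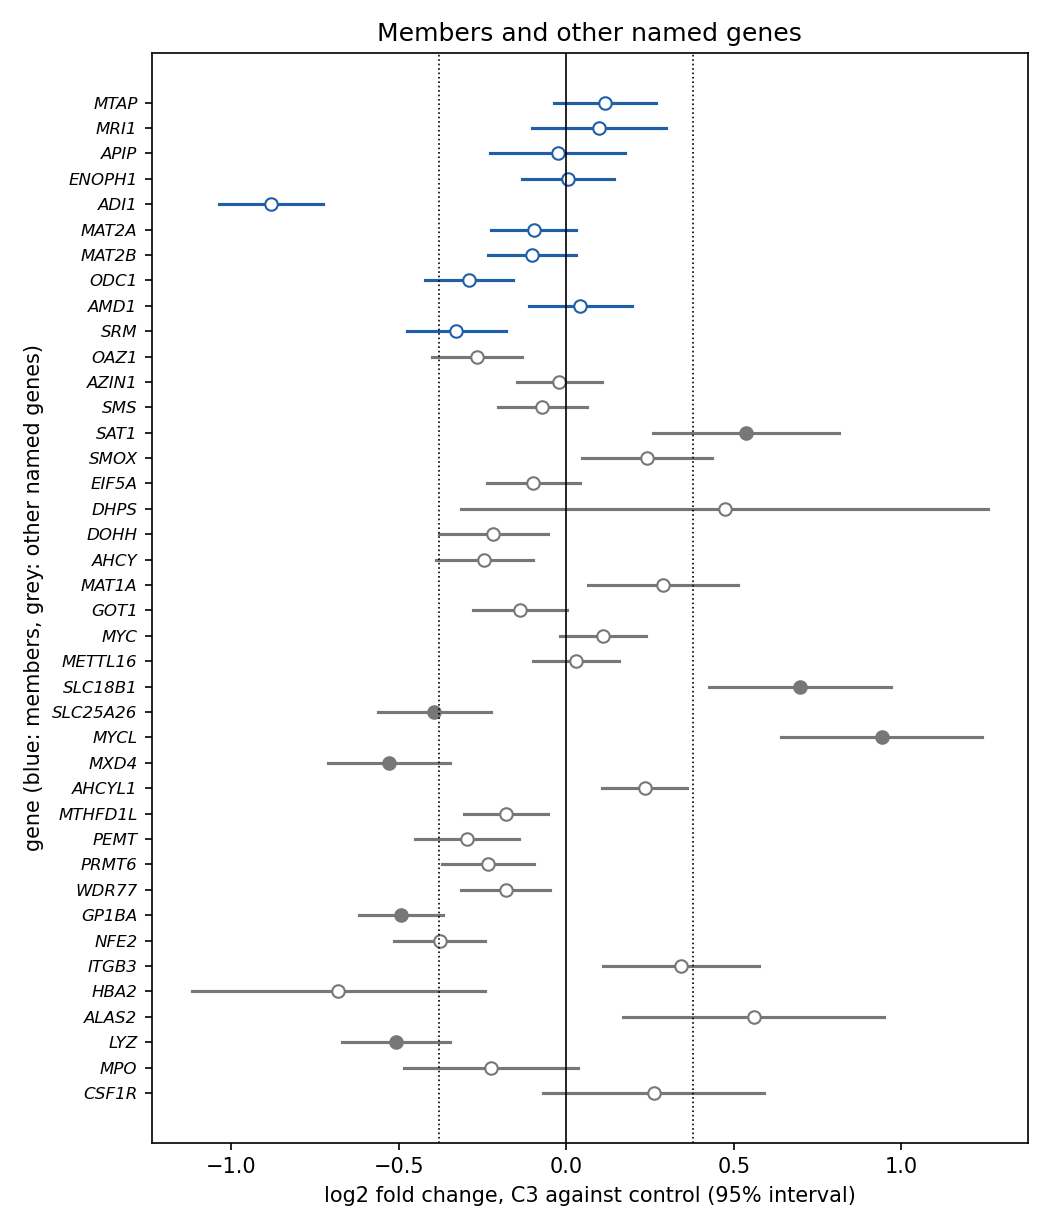
Log2 fold change of C3 against control with 95% intervals for the 10 members (blue) and for other named genes of the pathways and marker lists (grey). Filled grey points met both gates and members are drawn open, since this contrast chose ADI1 (-0.88). Dotted lines mark the 1.3-fold gate.

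To compare levels between genes, normalized CPM were divided by kilobases of merged exon. In control libraries the order by mean was SRM (275.3), ODC1 (176.0), MAT2A (47.1), ENOPH1 (33.0), AMD1 (17.6), MAT2B (10.5), ADI1 (10.2), MRI1 (6.36), MTAP (4.81) and APIP (3.76 CPM per kb). SRM was 73.2-fold above APIP on this scale, and SRM and ODC1 held the upper end of the order, with AMD1 at rank 5. MAT2B and ADI1 overlapped in their control libraries and are not ordered by these data, and each other pair of neighbours in the order was separated in all 3 control libraries. ADI1 stood above 73.7% of tested genes in control libraries and SRM above 99.2%. After C3, ADI1 was at 5.56 ± 0.49 (SD, n = 3) CPM per kb, between the C3 means of MRI1 (6.82) and MTAP (5.20). In C3 replicates 1 to 3, ADI1 was at 6.12, 5.29 and 5.27 and MTAP at 4.49, 5.58 and 5.52. ADI1 and MTAP thus overlapped after C3 and are not ordered there by these data. With the longest transcript as length, MTAP and MRI1 changed places.

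**Figure D2:**
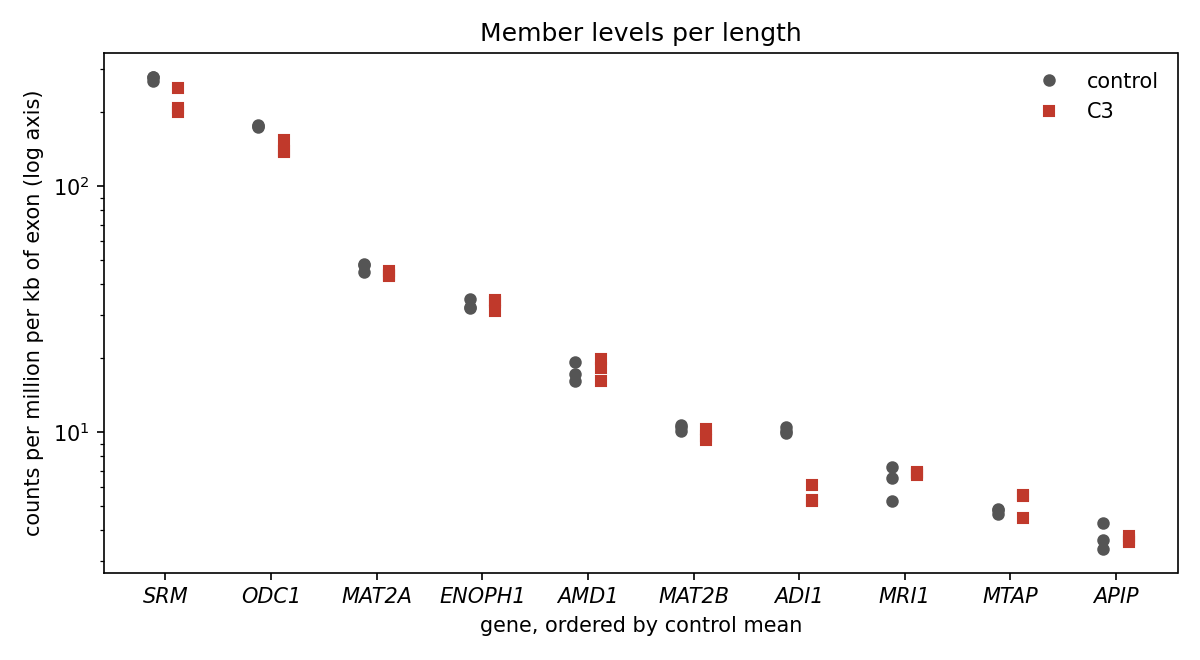
Level of each member in CPM per kb of merged exon on a log axis, ordered by the control mean. Points are libraries (circles control, squares C3), and the control means run from 275.3 for SRM to 3.76 for APIP.

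The 3 members whose C3 libraries lay below all controls are shown with the 250 bases before their RefSeq start (GRCh38.p14, minus strand, 5′ to 3′), since they moved in the same direction. All 10 members had an entry in the RefSeq promoter table. Capitals mark the E-box CACGTG, the CCAAT box CCAAT and the GC box GGGCGG on either strand, at chr2:3519532-3519781 for ADI1, chr1:11060019-11060268 for SRM and chr2:10448328-10448577 for ODC1.
ADI1: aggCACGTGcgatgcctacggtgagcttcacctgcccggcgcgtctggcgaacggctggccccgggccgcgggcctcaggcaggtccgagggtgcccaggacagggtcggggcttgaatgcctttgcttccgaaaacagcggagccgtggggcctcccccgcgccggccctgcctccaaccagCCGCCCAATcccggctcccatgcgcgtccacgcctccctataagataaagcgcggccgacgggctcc
SRM: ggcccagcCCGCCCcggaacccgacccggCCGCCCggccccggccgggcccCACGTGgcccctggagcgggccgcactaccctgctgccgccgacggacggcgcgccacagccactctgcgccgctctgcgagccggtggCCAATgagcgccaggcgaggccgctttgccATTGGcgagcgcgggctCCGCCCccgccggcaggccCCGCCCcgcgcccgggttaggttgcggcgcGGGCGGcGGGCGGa
ODC1: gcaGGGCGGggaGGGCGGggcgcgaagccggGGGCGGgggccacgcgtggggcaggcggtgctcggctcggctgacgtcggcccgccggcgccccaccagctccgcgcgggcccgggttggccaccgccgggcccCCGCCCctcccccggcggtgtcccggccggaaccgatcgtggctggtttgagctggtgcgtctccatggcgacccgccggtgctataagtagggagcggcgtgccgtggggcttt

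ADI1 held 1 E-box 247 bases before the start and a GC box and a CCAAT box that overlap, beginning 67 and 63 bases before it. SRM held 1 E-box, 2 CCAAT boxes and 6 GC boxes. ODC1 held 4 GC boxes and neither of the other motifs in this window. In 35116 RefSeq promoters, windows of the same length held the E-box in 6.34%, the CCAAT box in 32.0% and the GC box in 42.6%. Among the 10 members the counts were 4, 5 and 9. A match is a description of letters and not of binding.

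No change of the size seen in ADI1 was measured in its neighbours on chromosome 2. Among the 2 nearest tested protein-coding genes on each side, the log2 fold change was -0.10 for EIPR1, 0.06 for TRAPPC12, 0.04 for RNASEH1 and -0.11 for RPS7. The edgeR adjusted p-values of these 4 genes were 0.378, 0.648, 0.792 and 0.338. None of the 4 was called by edgeR, DESeq2 or limma-voom, and 0 had an unadjusted p below 0.05, a level that 16.8% of all tested genes reached as higher and 15.3% as lower. Within 1000 kb of the ADI1 start, 6 other genes were tested, and their log2 fold changes ran from -0.11 to 0.19.

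**Figure D3:**
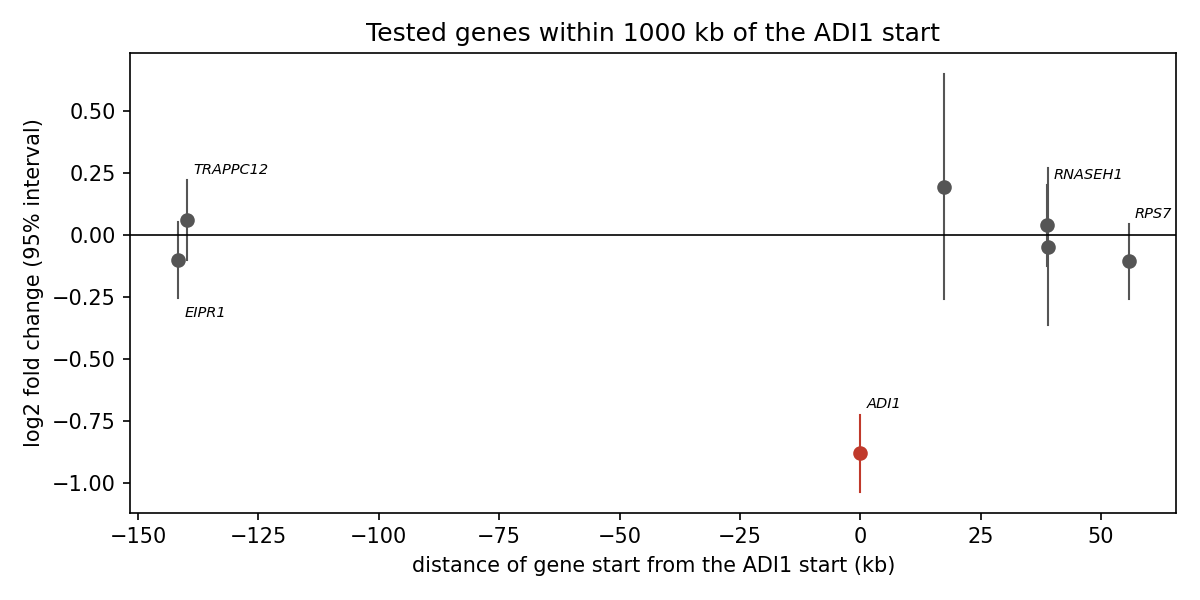
Log2 fold change with 95% interval of ADI1 (red) and of the 6 other tested genes (grey) within 1000 kb of the ADI1 start, against the distance of each gene's start in kb. The nearest protein-coding neighbours are named, and the 6 other genes lie between -0.11 and 0.19.

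Of 40 such neighbours of the 10 members, edgeR called 3 higher and 2 lower, where 5.05% of all tested genes were called higher and 1.47% lower, and nothing particular to the neighbours is read from these counts. Neighbours were taken at any distance, and WWC1 lay 4772 kb from MAT2B. SCD5 168 kb from ENOPH1 (log2 fold change 0.49), CAPG 121 kb from MAT2A (0.43) and CASZ1 258 kb from SRM (0.76) rose. Their edgeR adjusted p-values were 9.44e-05, 0.00675 and 1.87e-05. VAMP8 16.3 kb from MAT2A (-0.54) and GTF3C6 59.8 kb from AMD1 (-0.42) fell, with edgeR adjusted p-values of 5.87e-06 and 0.000239. Without control replicate 3, 3 of the 40 were called. MTAP lies beside the cell-cycle inhibitor genes CDKN2A and CDKN2B, a stretch that is often deleted in tumours. CDKN2A was present at 8068 ± 479.0 (SD, n = 3) normalized counts in control and 7315 ± 572.1 (SD, n = 3) after C3, and CDKN2B at 58.9 ± 7.15 and 71.6 ± 8.95. Neither passed (edgeR adjusted p = 0.147 and 0.320).

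Around the members, 79 further genes in 8 lists were examined, of which 72 were tested. By edgeR 3 rose and 2 fell past both gates, beside 5.05% higher and 1.47% lower over all tested genes, and nothing particular to these lists is read from the counts. The median log2 fold change was -0.07 against 0.0021 over all tested genes. Among regulators and further enzymes of polyamine synthesis, 7 of 9 genes were tested and 0 met both gates with edgeR, DESeq2 or limma-voom. At an unadjusted p below 0.05, 0 were higher and 1 was lower, beside 16.8% and 15.3% of all tested genes. That gene was OAZ1, the antizyme that sends ornithine decarboxylase to the proteasome, with 16425, 17050 and 16654 normalized counts in control and 14675, 14088 and 12948 after C3. Every C3 library was below every control library, and OAZ1 fell by 0.27 on the log2 scale (edgeR adjusted p = 0.00475), which is short of the fold gate. Without C3 replicate 3 its adjusted p was 0.0818 by edgeR, within a range of 4.45e-05 to 0.0818 over the alternatives. ODC1 and its antizyme were lower to a like extent, and their log2 ratio was -0.62 ± 0.031 (SD, n = 3) in control and -0.65 ± 0.072 (SD, n = 3) after C3. AZIN1, the inhibitor of antizyme, had a log2 fold change of -0.020 and SMS, which makes spermine, of -0.07 (edgeR adjusted p = 0.864 and 0.482). These values became 0.054 and 0.0023 when libraries were scaled by size alone.

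Polyamine breakdown and transport held 8 genes, of which 6 were tested, and 2 rose and 0 fell past both gates, beside 5.05% and 1.47% of all tested genes. The median log2 fold change of this list was 0.27 against 0.0021 over all tested genes. SLC18B1, a vesicular polyamine transporter, had 135.2, 108.2 and 144.5 normalized counts in control and 224.2, 204.8 and 200.8 after C3 and rose by 0.70 on the log2 scale (edgeR adjusted p = 0.000446). SAT1, the acetyltransferase that starts polyamine breakdown and export, had 102.9, 129.4 and 132.5 in control and 178.7, 170.4 and 178.0 after C3. All C3 libraries were above all control libraries for both. SAT1 rose by 0.54 on the log2 scale (edgeR adjusted p = 0.00589). The call was lost with DESeq2 (adjusted p = 0.0234) and when any library other than control replicate 3 was left out, with edgeR adjusted p-values from 0.0105 to 0.0479. SMOX, spermine oxidase, had a log2 fold change of 0.24 (edgeR adjusted p = 0.0735), which ran from 0.16 without C3 replicate 1 to 0.33 without control replicate 1 (edgeR adjusted p = 0.226 and 0.0384). PAOX had at most 9.55 normalized counts and has 61.0% of its exon sequence in common with a same-strand gene, so its level is uncertain.

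In the hypusine list, where spermidine is used to modify the translation factor EIF5A, 4 of 4 genes were tested and 0 met both gates with edgeR, DESeq2 or limma-voom, with 0 higher and 1 lower at an unadjusted p below 0.05, beside 16.8% and 15.3% of all tested genes. EIF5A had a log2 fold change of -0.10 and DOHH of -0.22 (edgeR adjusted p = 0.336 and 0.0528). Without C3 replicate 1 they were -0.14 and -0.30 (edgeR adjusted p = 0.0331 and 0.00503), short of the fold gate, and without C3 replicate 2 they were -0.06 and -0.15 (edgeR adjusted p = 0.675 and 0.255). With library size alone they were -0.026 and -0.15. DHPS, which uses spermidine directly, had only 8.82 to 18.8 normalized counts. It shares 38.8% of its exon bases with a gene on the same strand, so its level is uncertain.

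In the methionine cycle and transsulfuration list, 10 of 12 genes were tested and 0 met both gates with edgeR, DESeq2 or limma-voom, with 4 higher and 2 lower at an unadjusted p below 0.05, beside 16.8% and 15.3% of all tested genes. AHCY, which removes the S-adenosylhomocysteine left by methyl transfer, had a log2 fold change of -0.24 (edgeR adjusted p = 0.0151). Without C3 replicate 1 it was -0.33 (edgeR adjusted p = 0.000152), short of the fold gate, and without C3 replicate 2 it was -0.19 (edgeR adjusted p = 0.104). AHCYL1, a relative of AHCY, went the other way, with 2831, 2808 and 2949 normalized counts in control and 3516, 3257 and 3330 after C3. Its C3 libraries all lay above the controls, and its log2 fold change of 0.23 (edgeR adjusted p = 0.00780) is short of the fold gate. Over the alternatives its log2 fold change ran from 0.21 to 0.31 and its adjusted p from 0.000498 to 0.0630. MAT1A, the liver form of the synthase, had 193.0, 206.8 and 210.2 normalized counts in control and 245.8, 240.2 and 257.2 after C3, with a log2 fold change of 0.29 (edgeR adjusted p = 0.0616). The log2 ratio of MAT2A to MAT1A was 4.27 ± 0.10 (SD, n = 3) in control and 3.89 ± 0.064 (SD, n = 3) after C3. Of 8 folate one-carbon genes, 8 were tested and 0 met both gates with any of these tools, with 0 higher and 2 lower at an unadjusted p below 0.05, beside 16.8% and 15.3% of all tested genes. MTHFD1L had the smallest adjusted p of this list, with a log2 fold change of -0.18 (edgeR adjusted p = 0.0386) that was -0.15 without C3 replicate 2 (edgeR adjusted p = 0.179) and -0.21 without C3 replicate 1 (edgeR adjusted p = 0.00778). Of 8 aminotransferases, the class that completes salvage after ADI1, 7 were tested and 0 met both gates with these tools, with 1 higher and 1 lower at an unadjusted p below 0.05, beside 16.8% and 15.3% of all tested genes. GOT1 had a log2 fold change of -0.14 (edgeR adjusted p = 0.164), and of -0.19 without C3 replicate 1 (edgeR adjusted p = 0.0256), -0.10 without C3 replicate 3 (edgeR adjusted p = 0.495) and -0.06 with library size alone (edgeR adjusted p = 0.542).

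Among 19 genes that use or carry S-adenosylmethionine, all tested, 0 rose and 1 fell past both gates, beside 5.05% and 1.47% of all tested genes, and the median log2 fold change was -0.11. At an unadjusted p below 0.05, 0 were higher and 8 lower, beside 16.8% and 15.3% of all tested genes. The C3 libraries lay entirely above the control libraries for 0 of the 19 and entirely below them for 10, beside 17.5% and 16.9%. Nothing particular to this list is read from these counts. The gene that fell past both gates was SLC25A26, the carrier that brings S-adenosylmethionine into mitochondria, with 498.6, 501.6 and 505.1 normalized counts in control and 389.2, 375.2 and 381.9 after C3. It fell by 0.39 on the log2 scale (edgeR adjusted p = 0.00123), close to the fold gate. The call was lost with library size alone as scaling (log2 fold change -0.32), without C3 replicate 2 (-0.38) and without C3 replicate 3 (-0.39). SLC25A26 shares 12.2% of its exon bases with LRIG1 on the opposite strand. Short of the fold gate, the log2 fold change was -0.30 for PEMT, -0.23 for PRMT6 and -0.18 for WDR77, with edgeR adjusted p-values of 0.00658, 0.0149 and 0.0496. The adjusted p of PEMT reached 0.0736, that of PRMT6 0.159 and that of WDR77 0.239 over the alternatives. WDR77 shares 25.1% of its exon bases with a gene on the same strand, which had at most 13 counts, and 3.35% with the abundant ATP5PB (up to 8190) on the opposite strand, so its level is uncertain. METTL16, which binds MAT2A transcripts and governs their splicing, had a log2 fold change of 0.03 (edgeR adjusted p = 0.793).

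MYC and its partners are known to drive ODC1 transcription, and all 11 genes of this list were tested. MYCL rose and MXD4 fell past both gates, beside 5.05% higher and 1.47% lower over all tested genes. MYCL had 87.2, 107.1 and 80.0 normalized counts in control and 160.5, 187.6 and 178.8 after C3 and rose by 0.94 on the log2 scale (edgeR adjusted p = 4.65e-05). MXD4, an antagonist of the network, had 468.3, 452.8 and 470.5 in control and 334.6, 333.1 and 299.6 after C3 and fell by 0.53 on the log2 scale (edgeR adjusted p = 0.000119). MYC itself was far more abundant, at 13506 ± 309.0 (SD, n = 3) normalized counts in control and 14576 ± 581.0 (SD, n = 3) after C3, and did not pass (log2 fold change 0.11, edgeR adjusted p = 0.237, and 0.18 with library size alone, edgeR adjusted p = 0.0168).

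Genes with a pattern like ADI1 were ranked by the Pearson correlation of log2 normalized counts over the 6 libraries among 11851 genes with a mean of at least 50. The 5 highest were DDX59 (0.9996), APBB1IP (0.9992), TP53RK (0.9970), HMCES (0.9965) and TBXAS1 (0.9964). With 2 separated groups, such a value mostly repeats the difference between them, and 411 genes had a value above 0.95. Among the members, ODC1 (0.980) and SRM (0.917) had the highest values with ADI1 and MTAP (-0.580) the lowest. When libraries were scaled by size alone, 0 of the 5 genes were still among the nearest 5.

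Reads of related or overlapping genes bear on the member counts. Of 14 annotated pseudogenes of members, 11 were at 0 in every library, and the highest count was 6. The divergent transcript ODC1-DT had 15 to 24 counts. ADI1 shares 3.07% of its exon bases with ENSG00000235078 on the opposite strand, which had at most 10 counts. APIP shares 2.91% with PDHX, which had up to 1151 counts, MAT2A 12.5% with GGCX (up to 589) and MTAP 1.77% with ENSG00000265194 (up to 14), each on the opposite strand. APIP itself had 307 to 468 counts and MAT2A 3332 to 4639. MTAP also shares 4.71% with ERVFRD-3 and 3.17% with ENSG00000264545 on its own strand, both at 0 in every library. MRI1 shares 31.1% with an opposite-strand gene that was at 0. Beyond the members, OAZ1 shares 6.87% with JSRP1 on the opposite strand, which had at most 6 counts, and 6.40% with ENSG00000273734 on its own strand, which was at 0. No source used here states whether reads were counted by strand, so reads in these stretches cannot be assigned with certainty.

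Markers of the line and of other blood cells were read beside the members. Of 12 megakaryocyte markers 10 were tested, with ITGA2B the most abundant at 12902 ± 390.3 (SD, n = 3) normalized counts in control, and summed CPM were 1396, 1399 and 1332 in control and 1356, 1228 and 1266 after C3. PF4 and GP1BB were at 0 in every library. GP1BB shares all its exon bases with other genes on the same strand, so its absence from the counts is uncertain. PF4 shares 52.1% with a same-strand gene that is not in the count table. Whether that overlap removed reads of PF4 was not tested, so its absence is uncertain too. GP1BA fell by 0.49 on the log2 scale (edgeR adjusted p = 2.17e-06). It was the 1 gene of the list that edgeR called lower, with 0 called higher, beside 1.47% and 5.05% of all tested genes. At an unadjusted p below 0.05, 1 was higher and 3 lower, beside 16.8% and 15.3% of all tested genes. Of the 10 tested, 4 had a positive and 6 a negative log2 fold change. PPBP (-0.82) and VWF (-0.74), at 4.79 to 19.1 and 25.1 to 70.5 normalized counts, did not pass (edgeR adjusted p = 0.176 and 0.0629). NFE2 had a log2 fold change of -0.38 (edgeR adjusted p = 0.000189), just short of the fold gate, which it passed with RLE factors (-0.38), without C3 replicate 1 (-0.44) and without control replicate 3 (-0.41). DESeq2 and limma-voom each called 2 markers lower and 0 higher. Of the 15078 tested genes, limma-voom called 231 lower and 730 higher. DESeq2 was run on the whole table without the count filter and called 191 lower and 561 higher. Nothing particular to the markers is read from these counts. ITGB3, the integrin chain also known as CD61, had 186.1, 189.8 and 175.5 normalized counts in control and 218.5, 231.6 and 247.8 after C3, all C3 libraries above all control libraries, with a log2 fold change of 0.34 (edgeR adjusted p = 0.0325), which passes neither gate. ITGB3 has 33.2% of its exon bases in common with 1 other gene on its strand, which was at 0, so its level is uncertain. Of 8 erythroid markers 5 were tested, KLF1 was the most abundant, 0 met both gates with edgeR, DESeq2 or limma-voom, and 1 was higher and 1 lower at an unadjusted p below 0.05, beside 16.8% and 15.3% of all tested genes. The pair was ALAS2, with a log2 fold change of 0.56, and HBA2, with -0.68 (edgeR adjusted p = 0.0372 and 0.0244). Without C3 replicate 3 these were 0.46 and -0.66 (edgeR adjusted p = 0.199 and 0.0944). HBA2 shares 19.2% of its exon bases with an opposite-strand gene that is not in the count table. HBA1 had a log2 fold change of -0.12 (edgeR adjusted p = 0.751), and its groups overlapped. Whether reads of HBA1 and HBA2 were told apart was not tested. The sums of the 8 were 55.2, 49.6 and 52.6 CPM in control and 57.5, 54.1 and 59.7 after C3. Of 5 lymphoid markers 2 were tested, CD79A was the most abundant, MS4A1 was at 0, and the sums were 4.42, 3.70 and 4.36 in control and 5.32, 4.27 and 3.45 after C3. Neither of the 2 was called by edgeR, DESeq2 or limma-voom, and 0 had an unadjusted p below 0.05, beside 16.8% of all tested genes as higher and 15.3% as lower. Of 6 monocyte and granulocyte markers 3 were tested, and LYZ, the most abundant, fell by 0.51 on the log2 scale (edgeR adjusted p = 4.65e-05). LYZ shares 34.7% of its exon bases with an opposite-strand gene that was at 0, so its level is uncertain. The other tested markers overlapped between the groups, with log2 fold changes of -0.22 for MPO and 0.26 for CSF1R (edgeR adjusted p = 0.228 and 0.277). The value of MPO depended on single libraries. It was -0.36 without control replicate 3 and -0.14 without control replicate 1 (edgeR adjusted p = 0.0414 and 0.585). The sums of the 6 were 50.7, 50.2 and 48.1 CPM in control and 39.2, 38.6 and 39.8 after C3, and ELANE was at 0 in all 3 control libraries. The part of these marker differences in the ADI1, ODC1 and SRM values was not tested.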

How the data were processed

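RNA of 6 Meg-01 libraries was sequenced by the authors. Per the submitters' processing notes and the study's methods, reads were processed with fastp, STAR 2.6.1d and featureCounts 1.5.0-p3 on GRCh38, and the notes also name DESeq2. The authors deposited whole-number counts for each gene, not normalized. The sources used here state neither the strand setting nor the annotation release. Symbols were matched for 58207 of 58735 identifiers, and gene spans and exon lengths came from GENCODE 44. The test covered the 15078 genes that reached 10 counts in 3 or more libraries (99.9% of counts), with TMM factors and edgeR 4.0.16 (R 4.3.3), by its quasi-likelihood test with Benjamini-Hochberg adjustment over all tested genes. A gene was called at an adjusted p below 0.01 and a fold change above 1.3. Standard errors came from the F statistic. The biological coefficient of variation was 6.21%. The fit was tested on simulated data.

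Members and lists were chosen with earlier results of these data known. Members carry no p-value because the contrast chose ADI1. Named were the members, up to 6 called genes per pathway list, 13 fixed pathway genes, neighbours of ADI1 and MTAP, called neighbours of other members, and the 5 genes most like ADI1. AHCYL1, MTHFD1L, PEMT, PRMT6, WDR77, the other markers and shared-exon cases were named after their values were seen. Alternatives were RLE factors, library size alone, DESeq2 1.42.0, limma-voom (limma 3.58.1), other count filters, other gates, a replicate block, leaving out each library, and the longest transcript.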

Additional observations from a re-analysis of the deposited data

How the results depend on the processing

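The log2 fold change of ADI1, a description since this contrast chose it, lay between -0.95 and -0.81 over 13 other settings, and between -0.95 and -0.84 when a library was left out. With an adjusted p below 0.05 at any fold change, 1658 genes were higher (11% of tested genes, main 761) and 1323 lower (8.77%, main 222). At that wider gate, 3 members were lower (main 1), 9 pathway genes were lower (main 2) and 11 neighbours were called (main 5). With library size alone, 100 genes were lower, 91.1% of calls were higher against 77.4% in the main setting, 1 pathway gene was lower, and AZIN1 and SMS turned to 0.054 and 0.0023. That scaling moved the median log2 fold change of all genes by 0.074, and 0 of the 5 genes most like ADI1 were shared. Leaving out a library gave 516 to 766 higher and 129 to 340 lower genes. It also gave 1 to 2 lower members, 1 to 3 lower pathway genes and 3 to 5 called neighbours. Nothing particular to the members, pathway genes or neighbours is read from these counts. AZIN1 was 0.015 without control replicate 3, the upper end of a range from -0.034 to 0.015 when a library was left out. The cause was not tested. With the longest transcript, 8 of 10 members held their rank.

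The replicate block gave 909 higher and 268 lower genes and a log2 fold change of -0.88 for ADI1. Same-numbered libraries did not deviate together (correlations 0.015, -0.044 and 0.029 for numbers 1, 2 and 3), so the numbers were not used to pair libraries. With 3 libraries of 1 line per group, the values describe these libraries. DHPS and PAOX had too few counts for a small difference to be detectable.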
